A study of Mus musculus with 23 samples.

Results

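Dusp1, Dusp6, Ccn1 and Ier2 are 4 early response genes of the mitogen-activated protein (MAP) kinase and serum response pathways, taken from 8251 genes measured in mouse nucleus accumbens. All probe sets that the platform annotation maps to these genes were used: 2 for Dusp6 and 1 for each of the others, 5 of 12488 in all. The genes were proposed with values of these same arrays in view and are treated here as selected on their differences between methamphetamine and saline, so those differences are described here without a test. The rule does not state the values that chose them. The line differences and the interaction were tested on that reading. The interaction is built from the same methamphetamine differences, so its test is not fully independent of the choice. Dusp6 had a mean log2 difference after methamphetamine of only 0.03, and the 57th smallest p for the mean line difference. If line values also guided the choice, the line tests are not independent of it either, and their p-values could be too small.

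The mice came from 2 short-term selected lines founded on stock of C57BL/6J x DBA/2J, HMACT with a strong and LMACT with a weak acute methamphetamine response. Methamphetamine is a stimulant that raises extracellular dopamine. Each received a challenge injection of methamphetamine (2 mg/kg) or saline (0 mg/kg), and the nucleus accumbens, a part of the ventral striatum, was taken 1 hour later. RNA of 4-way tissue pools was hybridised to 1 Affymetrix array per pool. There were 6 pools of HMACT after methamphetamine (mean age 77.25 to 150 days), 6 of HMACT after saline (77.25 to 154 days), 5 of LMACT after methamphetamine (60 to 114.75 days) and 6 of LMACT after saline (61.5 to 127.5 days). Each selected line is a single population, so bred response and any other difference between these 2 populations cannot be told apart. The labels do not say how animals were shared among pools, so p-values cover only the variation among these pools.

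MAP kinase cascades carry signals from surface receptors to the nucleus, where ERK and its downstream kinases activate serum response factor with its partners, and CREB. These factors switch on early genes within minutes without new protein synthesis. Some of the early genes feed back: dual-specificity phosphatases remove the activating phosphates from MAP kinases and so limit the signal. In striatal neurons, dopamine and glutamate inputs activate ERK, and psychostimulants are known to induce early genes there.

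Dusp1 encodes MKP-1, a nuclear phosphatase that acts on JNK, p38 and ERK and is itself an early gene. Dusp6 encodes MKP-3, a cytoplasmic phosphatase selective for ERK, whose transcription follows ERK activity. Ccn1, long called Cyr61, encodes a secreted matricellular protein that binds integrins. Ier2, first described as Pip92, encodes a short-lived protein found in the nucleus and cytoplasm.

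The values were read as log2 expression values, on which a step of 1 means a doubling of signal, and 2.3 was taken as the floor of the scale. Dusp1 and Dusp6 were bright: their mean log2 values of 9.20 and 9.63 lay above those of 87.7% and 90.3% of genes. Ccn1 and Ier2 were dim, with means of 3.27 and 2.71 in a table whose lowest value is 2.235. Ier2 lay within 0.1 of its median of 2.54 on 18 arrays, and on 9 arrays it had the identical value of 2.5432. Ccn1 lay within 0.1 of its median of 3.09 on 16 arrays. Most arrays thus gave nearly the same value for these genes. The second Dusp6 probe set was at the lowest value on all 23 arrays, and every Dusp6 value below comes from the first unless stated. Different probe sets bind their targets to different extents, so levels are not compared between genes.

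Of the striatal projection neuron markers, 7 of 13 were on the array, and Penk (mean log2 value 14.3), Pde1b (11.4), Gad1 (10.8) and Tac1 (9.91) were high while Rgs9 was at the floor on every array. Within groups, 62.1% of the residual variance of 5308 genes lay along a single axis, on which 4 arrays stood apart: HMACT methamphetamine replicate 3, HMACT saline replicates 3 and 5, and LMACT methamphetamine replicate 4. The difference between 3' and 5' control probe sets, which grows as RNA breaks down, was 4.57 log2 units in LMACT methamphetamine replicate 5 and 1.07 to 2.80 on the other arrays. Where leaving out 1 of these arrays moved a difference by a large factor, both values are given.

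**Figure D1:**
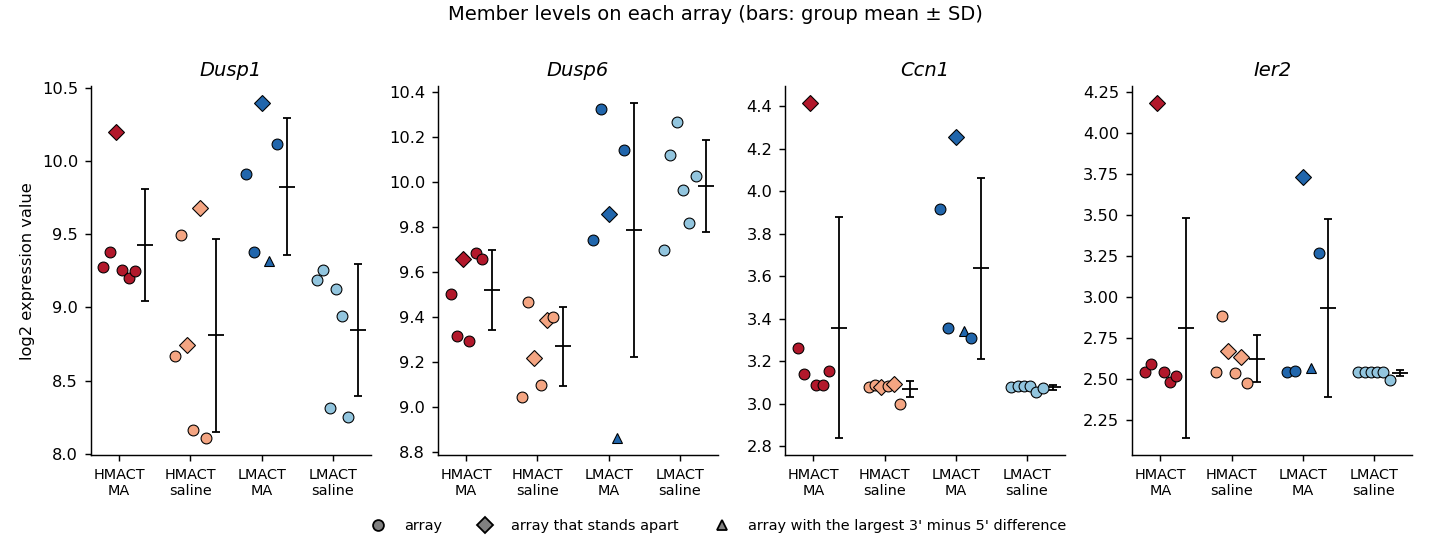
Log2 expression values (vertical axes) of Dusp1, Dusp6, Ccn1 and Ier2 on each of 23 arrays, by group, with MA for methamphetamine; bars give the group mean and SD. Diamonds are the 4 arrays that stand apart and the triangle is LMACT methamphetamine replicate 5. The group means of Dusp1 and Ccn1 are higher after methamphetamine in both lines. Their HMACT groups overlap, and for Ccn1 most of the HMACT difference comes from replicate 3. Dusp6 is lower in HMACT after saline than on any LMACT saline array, and Ier2 stays near 2.54 except on a few arrays.

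Dusp1 was higher 1 hour after methamphetamine in both lines. In HMACT its log2 values had a lowest, median and highest of 9.20, 9.26 and 10.2 after methamphetamine, against 8.11, 8.71 and 9.68 after saline. In LMACT the 5 methamphetamine pools read 9.91, 9.38, 10.4, 9.32 and 10.1, against a lowest, median and highest of 8.25, 9.04 and 9.26 after saline. All 11 methamphetamine arrays lay above the saline mean of their own line. In LMACT the groups did not overlap, whereas in HMACT only replicate 3 after methamphetamine exceeded the highest saline array.

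As a mean of both lines the log2 difference of Dusp1 was 0.80 (SE 0.207), which is 1.74-fold. In HMACT alone it amounted to 0.62 (SE 0.286), and in LMACT alone to 0.98 (SE 0.300). Without the 4 arrays that stand apart it was 0.75 (SE 0.196) over the other 19. The saline pools spread widely, with an SD of 0.66 in HMACT and 0.45 in LMACT, and the HMACT methamphetamine pools other than replicate 3 lay within 9.20 to 9.38.

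Promoter sequences of these genes are shown with the motif of CREB, the factor that cyclic AMP and ERK signalling both reach. RefSeq sequences of the GRCm38.p6 build were found for 3 of the 4 genes, all but Ier2. Each runs 5′ to 3′ over the 250 bases before the annotated start of transcription, with matches to the cyclic AMP response element or its half-site in capitals. Dusp1 lies at chr17:26508473-26508722 on the minus strand, Ccn1 at chr3:145649986-145650235 on the minus strand and Dusp6 at chr10:99262981-99263230 on the plus strand.
Dusp1: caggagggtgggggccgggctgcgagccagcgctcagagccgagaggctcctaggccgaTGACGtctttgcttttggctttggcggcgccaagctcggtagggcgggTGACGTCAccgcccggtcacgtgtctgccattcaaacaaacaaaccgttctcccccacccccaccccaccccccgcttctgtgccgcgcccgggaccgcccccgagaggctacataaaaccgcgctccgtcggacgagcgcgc
Ccn1: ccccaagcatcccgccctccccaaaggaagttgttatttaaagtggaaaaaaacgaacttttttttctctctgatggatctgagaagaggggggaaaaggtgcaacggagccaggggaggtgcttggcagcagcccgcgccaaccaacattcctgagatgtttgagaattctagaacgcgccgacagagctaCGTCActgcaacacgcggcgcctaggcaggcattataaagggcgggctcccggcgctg
Dusp6: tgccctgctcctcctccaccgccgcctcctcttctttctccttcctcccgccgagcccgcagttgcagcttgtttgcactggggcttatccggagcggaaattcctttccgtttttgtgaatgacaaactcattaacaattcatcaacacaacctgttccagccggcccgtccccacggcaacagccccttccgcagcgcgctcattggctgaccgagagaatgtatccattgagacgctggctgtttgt

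Both strands were searched. The full cyclic AMP response element TGACGTCA occurred 1 time in the Dusp1 window, 143 to 136 bases before the start, and in 1.55% of all 32851 promoter windows of this length. Its half-site TGACG, which lies 2 times within the full site, occurred 3 times for Dusp1, 1 time for Ccn1 and 0 times for Dusp6, and in 17.8% of windows. The AP-1 site TGANTCA (6.75% of windows) and the CArG box, the motif of serum response factor (1.47% of windows), were in none of the 3 windows. These matches describe the letters of these windows, and no binding was measured. Their part in the differences after methamphetamine was not tested.

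The mean of Ccn1 was higher after methamphetamine in both lines, by a small amount on a dim probe set. After saline all 12 arrays lay between 2.998 and 3.09. In HMACT the log2 values after methamphetamine had a lowest, median and highest of 3.09, 3.15 and 4.42, against 2.998, 3.08 and 3.09 after saline. In LMACT the 5 methamphetamine pools read 3.92, 3.36, 4.26, 3.34 and 3.31, against a lowest, median and highest of 3.06, 3.08 and 3.09 after saline. The highest saline array of either line was exceeded by 9 of 11 methamphetamine arrays, and the LMACT groups did not overlap.

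The mean log2 difference of Ccn1 was 0.42 (SE 0.138), which is 1.34-fold, with 0.29 (SE 0.190) in HMACT and 0.56 (SE 0.199) in LMACT. Most of the HMACT value came from replicate 3: without the 4 arrays that stand apart the HMACT difference was 0.09 (SE 0.0903) and the mean of both lines 0.25 (SE 0.0627). In LMACT it was 0.41 (SE 0.0869) without them. The saline values lay at the low end of the values of this probe set, and whether the fold misstates the change was not tested.

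Ccn1 is known to be expressed by vascular cells, so endothelial marker levels are given beside it. Of 12 endothelial markers 9 were on the array, none at the floor on every array, and Eng (mean log2 value 8.56) was the brightest, so a sum of linear signal follows it most. Cldn5 (5.12) and Pecam1 (5.87) were measurable while Kdr was under the floor on 16 arrays. Their summed linear signal was 361 to 973 in HMACT after methamphetamine and 391 to 1264 in HMACT after saline, and 401 to 980 in LMACT after methamphetamine and 337 to 484 in LMACT after saline. On the arrays with the highest Ccn1, HMACT methamphetamine replicate 3 and LMACT methamphetamine replicate 4, the sum was 973 and 980. On the array with the next highest Ccn1, LMACT methamphetamine replicate 2 at 3.92, it was 474. HMACT saline replicate 3 had the highest sum, 1264, with Ccn1 at 3.08. In pooled tissue, fewer cells of a type and less RNA per cell cannot be told apart.

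Ier2 differed on single arrays rather than across groups. After methamphetamine the HMACT pools had a lowest, median and highest log2 value of 2.48, 2.54 and 4.18, against 2.47, 2.59 and 2.88 after saline. The LMACT pools read 2.54, 2.55, 3.73, 2.56 and 3.27 after methamphetamine, against a lowest, median and highest of 2.49, 2.54 and 2.54 after saline. Only 3 methamphetamine arrays exceeded every saline array: HMACT replicate 3 and LMACT replicates 4 and 6. The mean log2 difference was 0.29 (SE 0.179), and 0.06 (SE 0.0835) without the 4 arrays that stand apart, 2 of which hold the highest values. The saline arrays that stand apart read 2.67 and 2.63, within the range of the other HMACT saline arrays.

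**Figure D2:**
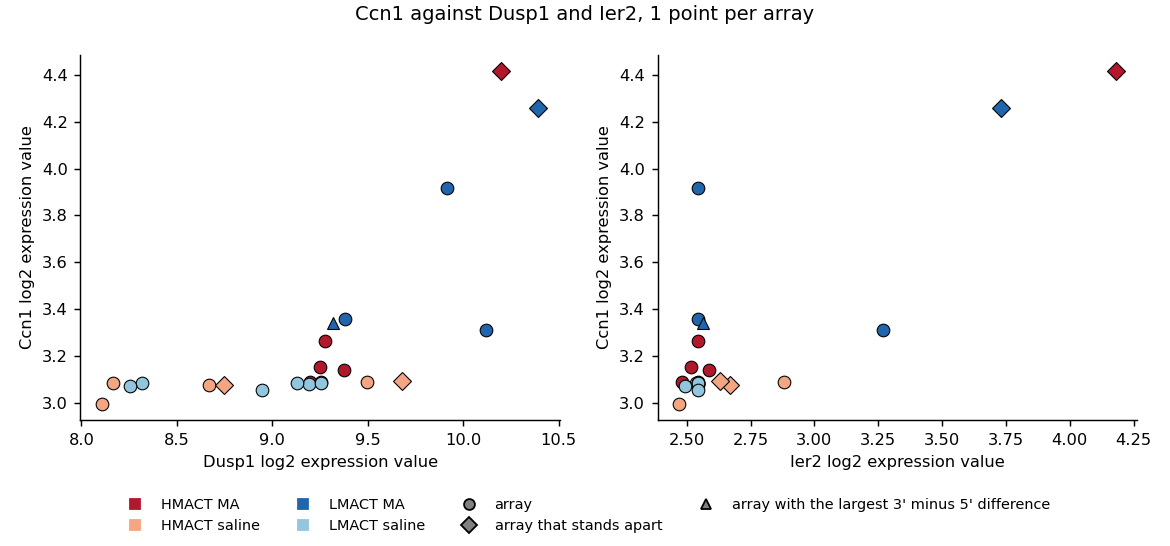
Log2 expression value of Ccn1 (vertical axis) against Dusp1 (left) and Ier2 (right), 1 point per array, coloured by group. The top right points of each panel are HMACT methamphetamine replicate 3 and LMACT methamphetamine replicate 4, which stand apart (diamonds), whereas the saline diamonds lie at a Ccn1 value of 3.08 and 3.09.

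Dusp1, Ccn1 and Ier2 were high on the same arrays. Over the 23 arrays Ccn1 and Ier2 had a Pearson r of 0.823, Dusp1 and Ccn1 0.704, and Dusp1 and Ier2 0.661. Without the 4 arrays that stand apart, r over 19 arrays was 0.137, 0.595 and 0.549 for the same pairs. For residuals from the 4 group means over these 19 arrays it was 0.177, 0.208 and 0.519, in the same order. The likeness of Dusp1 and Ccn1 there thus lay largely between groups. Dusp6 was not part of this pattern, with r of 0.172 against Dusp1, 0.138 against Ccn1 and 0.136 against Ier2. These values share arrays, normalization and groups, and serve as a description.

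Dusp6 gave no common difference after methamphetamine. Its mean log2 difference was 0.03 (SE 0.127), with 0.25 (SE 0.176) in HMACT and -0.20 (SE 0.184) in LMACT. In HMACT 4 of 6 methamphetamine arrays exceeded the highest saline array. The LMACT value rests on single methamphetamine arrays. It was 0.03 without replicate 5, the array with the 3' to 5' control difference of 4.57, and -0.33 without replicate 3.

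Over the whole table, 0.0242% of 8251 genes passed a limma adjusted p under 0.05 for the mean difference after methamphetamine. In LMACT, 2 of the 4 had no overlap between groups with methamphetamine higher, against 0.436% of all genes, and in HMACT 0 of 4, against 0.0606%. With methamphetamine lower, 0 of the 4 had no overlap in either line, against 0.0485% of all genes in HMACT and 0.23% in LMACT. These counts repeat the contrast taken to have chosen the genes, and nothing is read from them.

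**Figure D3:**
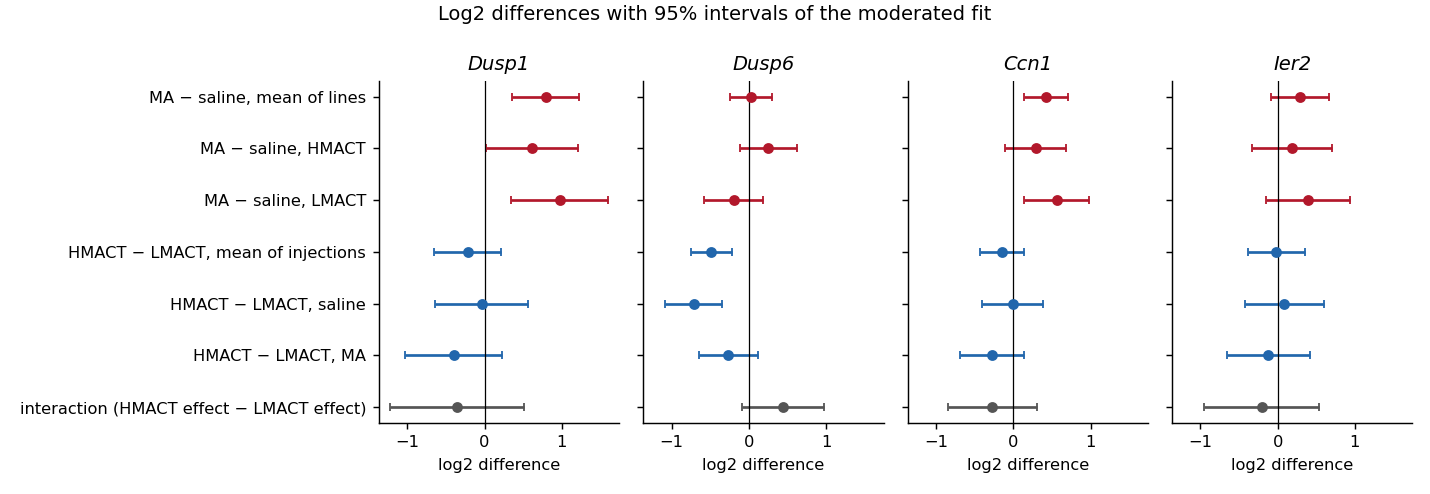
Log2 differences (horizontal axes) of each gene in 7 comparisons, with 95% intervals of the moderated fit over 23 arrays; red is methamphetamine (MA) minus saline, blue HMACT minus LMACT and grey the interaction. The intervals of Dusp6 for the lines after saline and as a mean of injections lie below 0, and all 4 interactions have intervals that include 0.

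The second question was whether the genes differ between the selected lines. Dusp6 was lower in HMACT, by a log2 difference of -0.49 (SE 0.127) as a mean of both injections, which is 1.40-fold, with a 95% interval of -0.76 to -0.22. After saline the HMACT arrays had a lowest, median and highest log2 value of 9.04, 9.30 and 9.46, against 9.70, 9.996 and 10.3 in LMACT, and the groups did not overlap. After methamphetamine the HMACT arrays had a lowest, median and highest of 9.29, 9.58 and 9.68, and the 5 LMACT arrays read 9.74, 10.3, 9.86, 8.86 and 10.1. Of the 11 LMACT arrays, 10 lay above the highest of the 12 HMACT arrays, and the exception was LMACT methamphetamine replicate 5.

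The difference did not pass the test over all 8251 genes. That test is independent of the choice of genes only if line values played no part in it. With limma the adjusted p of Dusp6 was 0.153 for the mean line difference (unadjusted p = 0.00106), the 57th smallest p of all genes. After saline the log2 difference was -0.71 (SE 0.176, adjusted p = 0.320), and after methamphetamine it was -0.27 (SE 0.184, adjusted p = 1). Without LMACT methamphetamine replicate 5 the value after methamphetamine became -0.50, and with that array kept but replicate 3 of its group left out it became -0.13. In the mean line comparison 0 of the 4 genes passed, against 0.194% of all genes, and at an unadjusted p under 0.05 there were 1 of the 4 and 1045 of all genes. After saline, 1 of the 4 (Dusp6) had no overlap between lines with HMACT lower, against 1.51% of all genes, and 0 with HMACT higher, against 0.376%. After methamphetamine 0 of the 4 lacked overlap, against 0.327% of all genes with HMACT higher and 0.194% with HMACT lower.

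The call turned on a single array. Without LMACT methamphetamine replicate 5 the mean line difference of Dusp6 was -0.61 (SE 0.0863) with a limma adjusted p of 0.0054, and 0.206% of all genes passed. After saline it stayed at -0.71, with an SE of 0.115 and an adjusted p of 0.028 in that fit, and 0.0242% of genes passed. With array weights the mean line difference was -0.60 (adjusted p = 0.0036), in a fit that called 10.1% of all genes. That fit also called Dusp6 after saline (-0.63, adjusted p = 0.048) and after methamphetamine (-0.57, adjusted p = 0.043), with 2.86% and 1.65% of all genes called. Without the 4 arrays that stand apart it was -0.50 (adjusted p = 0.137), with 0.558% of genes called, 0.0121% after saline and 0.0364% after methamphetamine. Without these and LMACT methamphetamine replicate 5 it was -0.65 (adjusted p = 0.017), with 0.885% of genes called, 0.0242% after saline and 0.109% after methamphetamine. That last fit was added after seeing the data. Over all 41 alternatives the direction was HMACT lower in every one, from -0.69 to -0.24. The -0.24 came from the mean of both Dusp6 probe sets, in which the second, at the lowest value on every array, shrinks the difference.

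Pool age and RNA quality also differed between the lines. Mean age was 114.6 ± 34.9 days in HMACT (SD, n = 12) and 76.6 ± 22.5 days in LMACT (SD, n = 11). Within HMACT after saline, Dusp6 averaged 9.24 in the 3 pools of 141.5 to 154 days and 9.29 in the 3 pools of 77.25 to 82.5 days. After methamphetamine the older 3 averaged 9.49 and the younger 3 averaged 9.54. Each LMACT group had 1 pool over 100 days, at 10.14 after methamphetamine and 10.03 after saline, above every HMACT array. With mean age as a covariate the line difference was -0.50 (adjusted p = 0.725), in a fit that called 0.0121% of genes, and among the 15 pools under 100 days it was -0.41 (SE 0.191).

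The mean 3' minus 5' control difference was 2.35 ± 0.29 in HMACT after methamphetamine (SD, n = 6) and 2.11 ± 0.55 in HMACT after saline (SD, n = 6). In LMACT it was 2.87 ± 0.96 after methamphetamine (SD, n = 5) and 2.63 ± 0.13 after saline (SD, n = 6). With this measure as a covariate the Dusp6 line difference was -0.69 (SE 0.108, limma adjusted p = 0.014), with 0.0727% of all genes called. This fit was added after seeing the data. LMACT methamphetamine replicate 5 lies far from the other arrays on this measure (4.57, against 1.07 to 2.80). The covariate therefore rests largely on that array, and the fit is not separate from leaving it out. In the chip lot of 15 arrays the difference was -0.46, and in the lots of 4 arrays, with 1 array a group, it was -0.38 and -0.74. Probe sequences and the alleles of the lines at the probes were not analysed here.

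Markers of oligodendrocytes, the myelinating cells, are given beside Dusp6. Of 10 listed, 9 were on the array, with Cnp and Ugt8a at the floor on every array. Their summed linear signal was 4599 to 9626 in HMACT after methamphetamine and 5959 to 9174 in HMACT after saline, against 9796 to 12856 in LMACT after methamphetamine and 7970 to 12142 in LMACT after saline. As a mean of injections 6 of the 7 above the floor were lower in HMACT (median log2 difference -0.27), against 2934 of all 6162 genes above the floor. Of these markers 0 passed, against 0.194% of all genes, and 3 had an unadjusted p under 0.05, against 1044 of the 6162. The myelin genes Mobp (-0.80, SE 0.193, limma adjusted p = 0.117), Cldn11 (-0.54, SE 0.186) and Mal (-0.38, SE 0.138) had the largest differences. After saline, where Dusp6 differed by -0.71, 3 of the 7 were lower and 4 higher (median 0.016). After methamphetamine, where Dusp6 differed by -0.27, 6 were lower and 1 higher (median -0.52). The part of these cells in the Dusp6 difference was not tested.

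**Figure D4:**
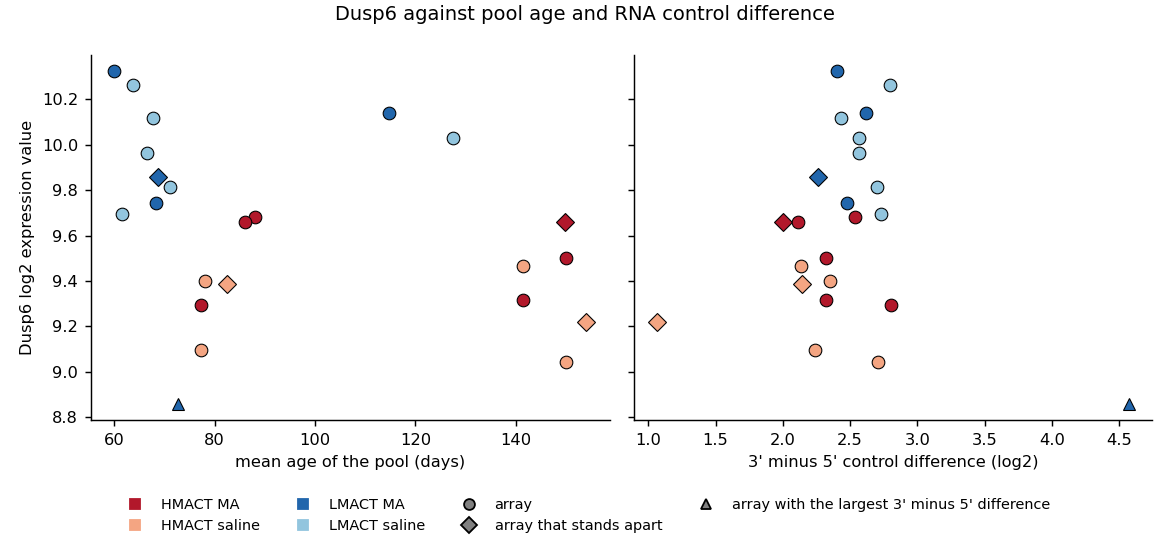
Dusp6 log2 expression value (vertical axis) against the mean age of the pool in days (left) and the 3' minus 5' control difference in log2 units (right), 1 point per array, coloured by group. HMACT arrays (red shades) lie at or below 9.68 at both ages, LMACT arrays (blue shades) lie at 9.70 or above except the triangle, LMACT methamphetamine replicate 5, at 8.86 and a control difference of 4.57.

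The other genes did not pass between the lines. The mean line difference was -0.22 for Dusp1 (SE 0.207, adjusted p = 0.698), with a 95% interval of -0.65 to 0.22. For Ccn1 it was -0.14 (SE 0.138, adjusted p = 0.704), with an interval of -0.43 to 0.14. For Ier2 it was -0.02 (SE 0.179, adjusted p = 1), with an interval of -0.39 to 0.36. After saline the differences of these genes were -0.04 (Dusp1), -0.0074 (Ccn1) and 0.09 (Ier2). After methamphetamine Dusp1 differed by -0.40 (SE 0.300), Ccn1 by -0.28 (SE 0.199) and Ier2 by -0.12 (SE 0.259), all at a limma adjusted p of 1. These too rested on single arrays. Without HMACT methamphetamine replicate 3 they were -0.55 (Dusp1), -0.49 (Ccn1) and -0.39 (Ier2), and without LMACT methamphetamine replicate 4 they were -0.26 (Dusp1), -0.12 (Ccn1) and 0.079 (Ier2). The mean line difference of Ccn1 was -0.25 and -0.065 without the same arrays, and that of Ier2 -0.15 and 0.083.

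The interaction compared the methamphetamine difference of the lines. For Dusp1 the HMACT minus LMACT effect was -0.36 (SE 0.415), for Ccn1 -0.27 (SE 0.275) and for Ier2 -0.21 (SE 0.358). Leaving out 1 array at a time gave -0.52 to -0.19 for Dusp1, lowest without HMACT methamphetamine replicate 3 and highest without HMACT saline replicate 5. For Ccn1 it gave -0.48 to -0.12 and for Ier2 -0.48 to -0.0082, in both lowest without HMACT methamphetamine replicate 3 and highest without LMACT methamphetamine replicate 4. For Dusp6 the interaction was 0.45 (SE 0.255). Leaving out 1 array gave from 0.22 (SE 0.173) without LMACT methamphetamine replicate 5 to 0.58 without replicate 3 of that group. The limma adjusted p was 0.860 for Dusp1, Dusp6 and Ccn1 and 0.941 for Ier2. The 95% intervals were -1.23 to 0.51 (Dusp1), -0.09 to 0.98 (Dusp6), -0.85 to 0.30 (Ccn1) and -0.96 to 0.54 (Ier2). Of the 4 genes 0 passed, as did 0% of all genes, with 0 of the 4 and 216 of all genes at an unadjusted p under 0.05. The intervals include effects as large as those seen after methamphetamine, so the lines are not shown to respond alike.

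Of the phosphatase, feedback and kinase lists around the 4 genes, 0 genes passed after methamphetamine, against 0.0242% of all 8251 genes. Of 15 other dual-specificity phosphatases 7 were on the array, 0 passed in either direction, and their log2 differences ran from -0.07 to 0.03. Among them were Dusp11, an RNA phosphatase (-0.07, SE 0.0779), and Dusp19 (-0.06, SE 0.112). Of 12 ERK feedback inhibitors 8 were measured, 0 passed, and the range over the 6 above the floor was -0.07 to 0.08. Ppp2ca, a catalytic subunit of protein phosphatase 2A, had 0.08 (SE 0.158) and Spred2, an inhibitor of the Ras to Raf step, -0.04 (SE 0.0909).

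Kinases gave the same counts. Of 15 measured ERK cascade genes 0 passed (median -0.01 over the 11 above the floor), and Map2k1, which encodes the ERK kinase MEK1, had -0.12 (SE 0.128). Of 14 measured JNK and p38 cascade genes 0 passed (median 0.0053 over 13), and Mapkapk2, a kinase downstream of p38, had 0.38 (SE 0.281). The median over all 6162 genes above the floor was -0.0030.

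The serum response factor list held the other early genes. Of 34 listed genes 26 were measured, and 1 passed higher and 0 lower, against 0.0121% of all genes in each direction. Of 24 above the floor 16 had a positive log2 difference, with a median of 0.11, against 2968 of all 6162 genes above the floor. The list was drawn up with earlier results of these data known, so its counts serve as a description. Btg2, an antiproliferative early gene, rose after methamphetamine, by 0.88 on the log2 scale (SE 0.0929, limma adjusted p = 8.1e-05). The transcription factor genes Atf3 (0.95, SE 0.185) and Klf4 (0.79, SE 0.165) had the next smallest p-values and did not pass. Of the cytoskeletal targets of the same factor, 13 of 15 were measured and 0 passed, with a median of 0.02 over 12 genes. The tropomyosin gene Tpm1 had 0.06 (SE 0.0620).

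Of the other CCN genes and the integrin subunits that bind CCN1, 11 of 12 were measured. After methamphetamine 0 passed, against 0.0242% of all genes. Ccn3, a family member once called Nov, had -0.57 (SE 0.317), the largest difference in the list, against 0.42 for Ccn1. Among markers of endothelial, mural, blood, microglial, astrocyte, oligodendrocyte and choroid plexus cells, 0 genes passed after methamphetamine or between the lines, with the oligodendrocyte list described beside Dusp6.

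Between the lines 0 genes of these lists passed as a mean of injections, against 0.194% of all genes. The smallest p-values in the ERK related lists belonged to Rasa1, a Ras inhibitor (-0.76, SE 0.286), Nras (-0.68, SE 0.257) and the adaptor gene Grb2 (0.46, SE 0.185), at limma adjusted p-values of 0.320, 0.326 and 0.338. In the phosphatase list they belonged to Dusp11 (-0.13, SE 0.0779) and Dusp2 (0.01, SE 0.0077). Among early genes Egr2 had -0.40 (SE 0.122, adjusted p = 0.225) and Btg2 -0.24 (SE 0.0929, adjusted p = 0.326). Tpm4 had -0.41 (SE 0.118, adjusted p = 0.197), and the integrin genes Itgb1 and Itgav -0.65 (SE 0.309) and -0.75 (SE 0.371).

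**Figure D5:**
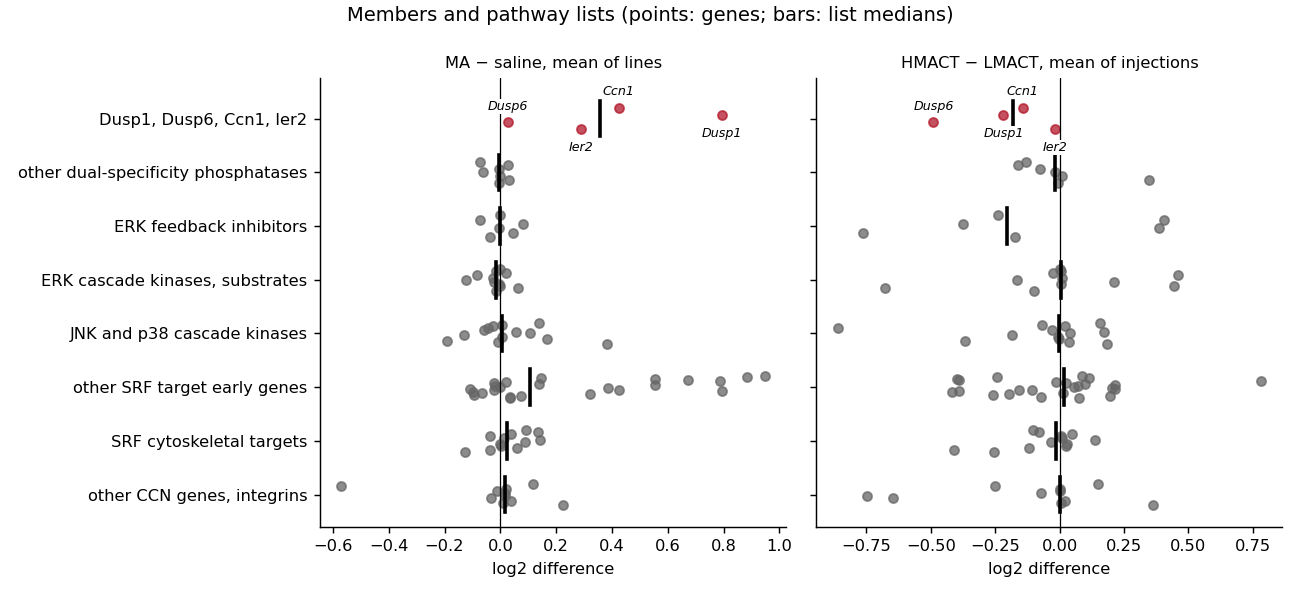
Log2 differences (horizontal axes) of the 4 genes (red, named) and of each gene above the floor in 7 pathway lists (grey), for methamphetamine (MA) minus saline as a mean of lines (left) and HMACT minus LMACT as a mean of injections (right); black bars are list medians. On the left the other phosphatases lie between -0.07 and 0.03 and the serum response factor list extends to 0.95; on the right Dusp6 lies at -0.49, against a range of -0.16 to 0.35 for the other phosphatases.

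The genes most like each member over the 23 arrays were taken from 5308 genes above the floor on 12 or more arrays. For Dusp1 they were Nr4a1, an early gene for a nuclear receptor (Pearson r 0.796), Cpsf4 (0.784) and AU040320 (0.779). Without the 4 arrays that stand apart, r for Nr4a1 was 0.819 and the others had 0.674 and 0.707. For Dusp6 they were Gt(ROSA)26Sor (0.757), Sgk1, a glucocorticoid-induced kinase (0.748), and Numb, an inhibitor of Notch signalling (0.730), with 0.805, 0.729 and 0.843 without the 4 arrays. Gt(ROSA)26Sor was dim, with a mean log2 value of 2.45.

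For Ccn1 the likest genes were Ephb3 (0.871), Exosc4 (0.868) and Slc29a1 (0.867), and for Ier2 Exosc4 (0.918), Ap5s1 (0.918) and Pald1 (0.906). For Exosc4 the r without the 4 arrays was 0.0986 against Ccn1 and 0.0608 against Ier2. Against Ccn1, Ephb3 had 0.800 and Slc29a1 0.740, whereas against Ier2, Ap5s1 had 0.0631 and Pald1 0.237. By Spearman rank Ephb3 had 0.290 and Slc29a1 0.522 against Ccn1. Ranked by Spearman, or without the 4 arrays, 0 of the 3 genes stayed among the 3 likest for Ccn1 and for Ier2. By each of these rankings 1 stayed for Dusp1 and 2 for Dusp6. Ephb3 (mean log2 value 2.89), Exosc4 (2.49) and Ap5s1 (2.39) were dim. The array axis, groups and normalization are shared by all of these values.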

How the data were processed

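Each array measured biotin-labelled cRNA of 1 pool. The deposited values were taken as log2 values. The scale was inferred from the values, which run from 2.235 to 16.4. How they were summarised, and whether and how they were normalized between arrays, is not given in the sources used here. The submitters' processing notes list R 2.7.1. The deposited table held 12488 probe sets; genes were named through the platform annotation, updated by RefSeq gene identifier, and the probe set with the highest mean stood for each of 8251 genes. The array limits precision through signal over the floor, set at 2.3; 2089 genes lay under it on every array.

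Differences came from limma 3.58.1 in R 4.3.3 (4 group means, 23 arrays, no covariates), tested on simulated data, with two-sided p-values adjusted by Benjamini-Hochberg over all genes. The members, gene lists and alternatives were chosen with earlier results of these data known. Genes named from each list were those with the 3 smallest p-values after methamphetamine and the 2 smallest between lines, of which the text gives a part; likeness used the 3 highest Pearson r. Arrays stand apart where their score on the first principal component of residuals exceeds the median plus 3.5 scaled median absolute deviations. The lot of 1 array was counted with its near-namesake. Alternatives are given in the closing section. All 253 pairs of arrays differed.

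Replicate numbers are shared between groups. Within a line 8 of 11 same-numbered pairs had a residual correlation over 0.1 (median 0.236). Among pairs of other number within a line it was 21 of 55 (median -0.035). Same-numbered pools of a line may therefore be matched, which was not settled here. The main fit did not treat the numbers as pairs, and fits with the numbers as a block are given in the closing section.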

Additional observations from a re-analysis of the deposited data

Results flagged for a closer look

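In 16 sets of 4 genes and 4 groups, 5 values on 3 arrays lay far from the others of their group by Dixon's ratio. Chance flags about 1 in 20 groups of normally spread values, a rate that does not hold where arrays repeat the same value. HMACT methamphetamine replicate 3, which stands apart on the array axis, was high for 3 genes: Dusp1 at 10.2 with the next array at 9.38, Ccn1 at 4.42 with the next at 3.26, and Ier2 at 4.18 with the next at 2.59. The remaining flags are small gaps on dim probe sets. Ccn1 read 2.998 in HMACT saline replicate 6, with the next array at 3.08. Ier2 read 2.49 in LMACT saline replicate 6. The other 5 arrays there shared the value 2.54, so a gap of any size would give a ratio of 1. The LMACT methamphetamine replicate 5 value of Dusp6, 8.86 against 9.74 for the next array, had a ratio of 0.603, under the limit of 0.71.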

How the results depend on the processing

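Of 1455 values and counts under alternatives, 1409 kept their direction and side of the threshold, or moved by less than 1 SD between replicates. The exceptions follow, and the cause was not tested. Of the 4 genes, 0 were called between lines in the main fit. For the mean line difference 1 (Dusp6) was called with array weights and with the 3' minus 5' difference as a covariate. It was also called without the 4 arrays that stand apart and LMACT methamphetamine replicate 5. The last 2 of these fits were added after seeing the data. Dusp6 was called after saline with array weights and with that covariate, and after methamphetamine with array weights. The Dusp6 mean line difference was -0.60, -0.69 and -0.65 in these fits, after saline -0.63 with array weights and -0.91 with the covariate, and after methamphetamine -0.57 with array weights. Leaving out 1 array gave 0 or 1 of the 4 genes called, with Dusp6 at -0.61 to -0.42 for the mean and -0.77 to -0.66 after saline. These calls came without LMACT methamphetamine replicate 5.

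Several differences that had not passed turned direction. For Dusp1 after saline they were 0.016 (quantile normalization), 0.028 (array weights), 0.079 (lot of 15 arrays) and -0.21 to 0.10 (leaving out 1 array). For Ccn1 after saline they were 0.015 (median centring) and -0.012 to 0.0070 (leaving out 1 array). In the lot of 15 arrays Ccn1 had 0.072 for the mean line difference, 0.16 after methamphetamine and 0.17 for the interaction, and Ier2 had 0.14, 0.16 and 0.054. For Ier2 the mean line difference was 0.030 with median centring and -0.15 to 0.083 leaving out 1 array, and after methamphetamine -0.39 to 0.079. After saline Ier2 had -0.094 with mean age, -0.058 with the control difference and -0.31 with the array axis as a covariate, and its interaction was 0.098 with the axis. The Dusp6 effect in LMACT was 0.17 with array weights. A replicate block on the numbers gave a Dusp6 mean line difference of -0.47 (adjusted p = 0.128) and, as a random block within lines, -0.49 (adjusted p = 0.213); it changed no call.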
